A study of Chromochloris zofingiensis with 14 samples.

Results

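The genes described here are the nuclear genes of the alga Chromochloris zofingiensis for cytochrome c6 (PETJ), plastocyanin (PETE) and ferredoxin-NADP reductase (FNR), which carry electrons on either side of photosystem I. They were found by name in the deposited gene annotation, with the version tag behind each name removed, and each name belonged to 1 gene. They are 3 of 15369 annotated genes, of which 597 had a name.

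The study sequenced RNA from cultures of strain SAG 211-14, a unicellular green alga, in 14 growth conditions with 1 library each and no replicate. Cultures were kept in shaken Proteose medium at 25 °C with 16 h of light and 8 h of dark a day, unless the treatment set another regime. The treatments were 1 h in medium lacking nitrogen, phosphorus, sulfur or iron, 2 h with 1 mM hydrogen peroxide, and 72 h with 20 mM glucose. The photosensitizer rose bengal, which generates singlet oxygen when lit, was given at 5 μM. The condition labelled low had 0.5 h of dark and 1 h of light, and that labelled high had 1 h of dark and 3 h of light. The light in all treatments named so far was 100 μmol photons m−2 s−1. Cultures were also kept without oxygen for 4 h in medium light or in the dark, and in the dark for 48 h. The light levels were low at 40, medium at 100 and high at 400 μmol photons m−2 s−1. None of the labels names a medium without copper, the metal whose supply sets the choice between the 2 lumenal carriers in the alga Chlamydomonas reinhardtii. The deposited file analysed here holds gene positions and no value of any sample. Expression and read depth were therefore not analysed here, no condition was compared with another, and the results below are about where the genes lie and how they are built.

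In photosynthetic electron transport, the cytochrome b6f complex passes electrons to a small soluble protein in the thylakoid lumen, which brings them to photosystem I. That carrier is plastocyanin, which holds copper, or cytochrome c6, which holds a heme with iron. On the stromal side photosystem I reduces ferredoxin, a small iron-sulfur protein, and ferredoxin-NADP reductase, a flavoprotein, uses reduced ferredoxin to make NADPH for carbon fixation.

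PETJ and PETE, the genes of the 2 interchangeable lumenal carriers, were direct neighbours on chromosome 1. Both lay on the plus strand, PETJ first, so that the 3′ end of PETJ led into the 5′ side of PETE. PETJ (Cz01g35120) ran from 3542858 to 3543866 and PETE (Cz01g35130) from 3544233 to 3544610, counted from 1 on the sequences listed in the annotation's header. They were genes 974 and 975 of 1269 on the chromosome, 75.4% of the way along its 4.70 Mb. The gap between their coding regions, from 3543867 to 3544232, was 366 bases. No untranslated region or transcript end is annotated, so how much of the gap belongs to the transcript of either gene is not known. Both genes together covered 1753 bases.

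The gap between PETJ and PETE was on the narrow side for neighbours on the same strand. Its 366 bases compare with a median of 921 bases over 7394 same-strand pairs, and with quartiles of 393 and 1544 bases. In 23.7% of those pairs the gap was no wider (22.7 to 24.7%, 95% Clopper-Pearson interval). FNR was separated from TIC40B, its neighbour on the 3′ side, by 1268 bases, and 65.5% of same-strand pairs had a gap no wider (64.4 to 66.6%). The distribution of same-strand gaps had a peak below 400 bases and a broader one around 700 bases. PETJ and PETE lay within the narrow peak, and FNR and TIC40B on the falling side of the broad one.

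**Figure D1:**
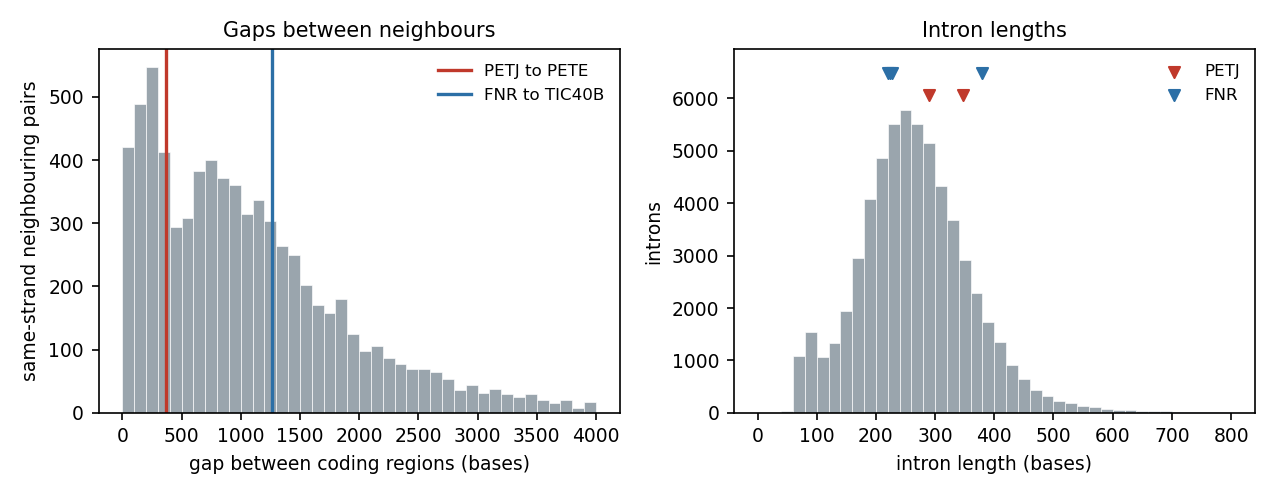
Left, gaps between the coding regions of 7394 same-strand neighbouring gene pairs (bars, 100 bases each), with the PETJ to PETE gap of 366 bases and the FNR to TIC40B gap of 1268 bases as vertical lines; 162 wider pairs of 4000 bases or more are off the scale. Right, lengths of 60579 introns (bars, 20 bases each), of which 107 of 800 bases or more are off the scale, with the introns of PETJ and FNR as triangles. Both of PETJ lie above the median of 260 bases and 3 of 4 of FNR lie below it.

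The flanks of the pair differed on the 5′ side of each gene. Upstream of PETJ lay Cz01g35110, a gene without a name on the same strand, with 357 coding bases in 3 segments, and 1534 bases separated it from PETJ. This was wider than most same-strand gaps, since 74.7% of them were no wider. The 5′ side of PETE was thus 366 bases to the next coding region, against 1534 bases for PETJ. Downstream of PETE lay Cz01g35140, also without a name, on the minus strand, with 807 coding bases in 5 segments. Its 3′ end faced that of PETE across 1300 bases, against a median of 1043 bases over 3881 convergent pairs.

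PETJ and PETE closed a run of 5 genes on the plus strand, from 3536917 to 3544610. Before them in the run came Cz01g35090 with 273 coding bases, Cz01g35100 with 1215 and Cz01g35110. Among the 4 genes on each side of the pair, 5 shared its plus strand, 3 lay opposite, and 0 of 8 had a name. Their coding regions ran from 273 to 5964 bases and their number of segments from 1 to 19. The gaps in this stretch of 39.1 kb ran from 159 to 5747 bases, and the 3 widest lay beyond PETE. The nearest named gene on the lower side was KAR1 (Cz01g34370), a β-ketoacyl-ACP reductase of fatty acid synthesis, 43.7 kb and 12 genes away. On the higher side it was LACS4 (Cz01g36150), a long-chain acyl-CoA synthetase, 115 kb and 28 genes away. Neither of these belongs to photosynthetic electron transport.

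**Figure D2:**
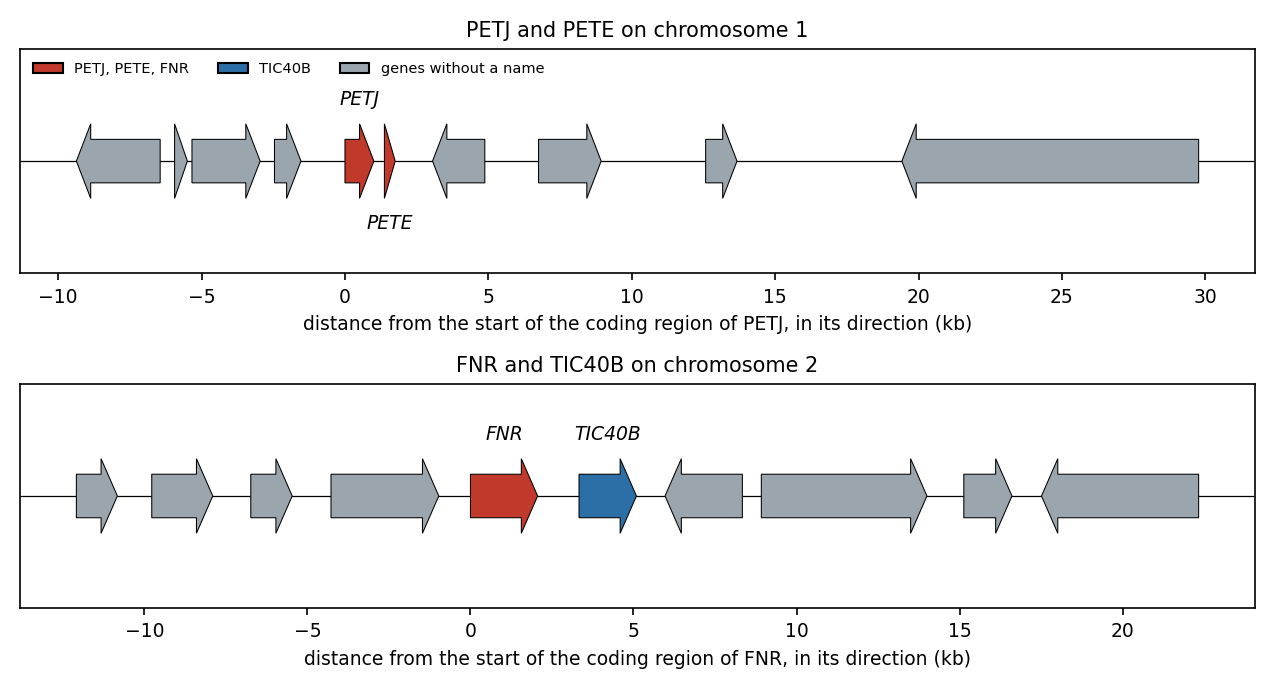
Gene order around PETJ and PETE (above) and FNR (below), with 4 genes on each side of each pair, drawn to scale in kb from the start of the PETJ or FNR coding region in the direction of that gene. Arrows show the coding span and strand of each gene; PETJ and PETE lie 366 bases apart and point the same way, and FNR points toward TIC40B across 1268 bases.

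The coding regions of the 2 lumenal carriers were nearly equal in length but built differently. PETJ had 372 coding bases, or 124 codons, in 3 segments, and PETE had 378 bases, or 126 codons, in 1 segment without an intron. Whether the last codon is the stop is not stated in the file. In coding length 13.1% of all genes were no longer than PETJ (12.5 to 13.6%) and 13.5% no longer than PETE (12.9 to 14.0%). PETJ spanned 1009 bases, of which 36.9% were coding, against a median of 58.2% over all genes. PETE was coding over its whole annotated span of 378 bases. The extra length of PETJ was thus its introns, 637 bases in all, which exceed its coding bases.

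The segments of PETJ had 148, 113 and 111 bases. Its first intron, of 290 bases (3543006 to 3543295), fell after coding base 148, inside codon 50. It was in phase 1, which means that it splits a codon after its first base. The other, of 347 bases (3543409 to 3543755), fell in phase 0, between codons, after codon 87. They stood at 39.8% and 70.2% of the coding region. Both were longer than the median intron of 260 bases. Of all 60579 introns, 63.8% were no longer than the first of PETJ and 82.7% no longer than its other. The mean of 318.5 bases was not exceeded in 79.5% of the 12571 genes with introns (78.8 to 80.2%).

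PETE had no intron, as did 2317 of the 14427 genes on chromosomes, or 16.1%. Both carriers were also set beside chromosomal genes within 10% of their own coding length. Of 759 such genes around the length of PETE, 329 had no intron (43.3%) and 430 had at least 1. Of 763 around the length of PETJ, 123 also had 2 introns (16.1%), 73 had more (9.57%) and 567 had fewer (74.3%). The median gene of either length had 1 intron, so PETJ was above and PETE below it.

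**Figure D3:**
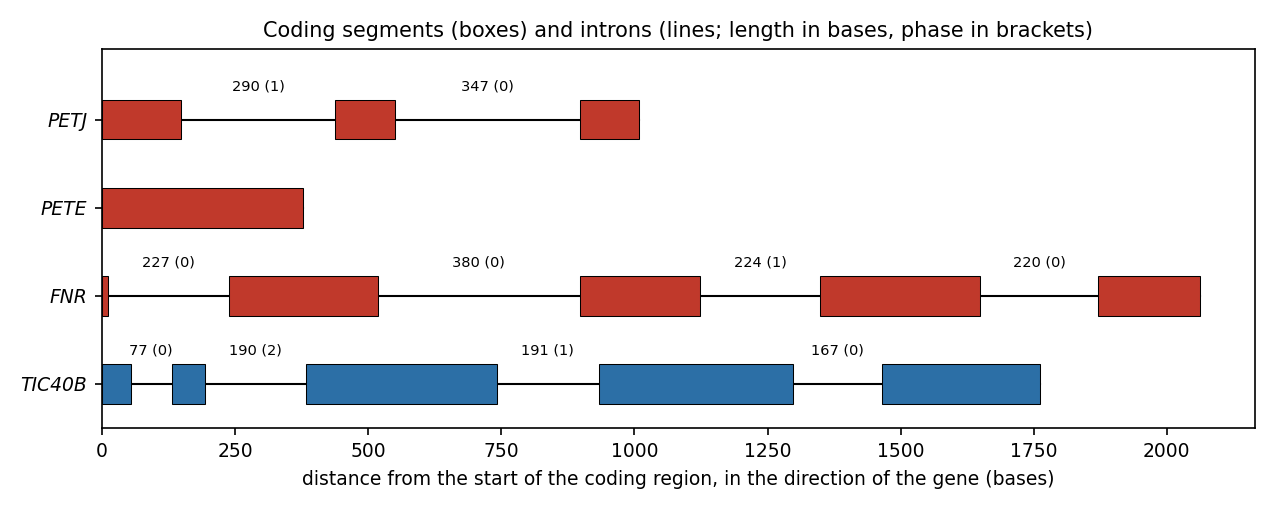
Coding segments (boxes) and introns (lines) of PETJ, PETE, FNR and TIC40B, to scale in bases from the start of each coding region. The number over each intron is its length in bases with its phase in brackets; PETE is 1 uninterrupted segment of 378 bases, PETJ has introns of 290 and 347 bases, and the first segment of FNR has 12 bases.

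FNR (Cz02g17180), the enzyme that makes NADPH, lay on the minus strand of chromosome 2 from 1770149 to 1772210, gene 455 of 1117 and 41.9% of the way along. It had 1011 coding bases, or 337 codons, in 5 segments. In coding length it stood near the middle of the annotation, since 48.7% of all genes were no longer (47.9 to 49.5%) and the median was 1041 bases. It spanned 2062 bases, of which 49.0% were coding. Its 4 introns compare with a median of 3 over all genes. Of 1377 chromosomal genes within 10% of its coding length, 224 also had 4 introns (16.3%), 408 had more (29.6%) and 745 had fewer (54.1%).

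The segments of FNR were uneven. In the order of translation they had 12, 279, 226, 302 and 192 bases. The first, from 1772199 to 1772210, holds 4 codons, or 1.19% of the coding region, so nearly the whole protein is encoded after the first intron. A first segment of 12 bases or fewer was present in 231 of the 12110 chromosomal genes with introns, or 1.91%, and the median first segment had 152 bases. This feature of FNR was singled out after its value was seen. The deposited score of the FNR model was 0.55, against 0.95 for PETJ and 0.85 for PETE and a median of 0.78 over 15170 scored genes. The file does not say what the score measures, and whether the short first segment is correct was not tested.

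The introns of FNR had 227, 380, 224 and 220 bases and fell after codons 4 and 97, inside codon 173 and after codon 273. Of these, 3 were in phase 0 and 1, the one inside codon 173, in phase 1. The intron of 380 bases was longer than most, since 89.4% of all introns were no longer, whereas the other 3 were shorter than the median. Their mean of 262.8 bases was close to the middle, and 49.2% of genes with introns had a mean no longer. PETJ and FNR together had 4 of 6 introns in phase 0, beside 52.9% of all introns. In both, 1 intron was in phase 1, and none of their introns was in phase 2, beside 22.2% of all introns.

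TIC40B (Cz02g17170, 1767119 to 1768880), on the same strand, was the next gene on the 3′ side of FNR. It is described as a translocase of the chloroplast inner membrane, and Tic40 in plants is a co-chaperone of protein import into the chloroplast. Its 1137 coding bases lay in 5 segments of 54, 62, 359, 365 and 297 bases, so that FNR and TIC40B had the same number of introns. Those of FNR were longer, at 220 to 380 bases, against 77 to 191 bases in TIC40B. The TIC40B model had a score of 0.23, and 2.08% of scored genes had a score no higher. A further gene, TIC40A (Cz02g19150), lay on the same chromosome and strand, 188 kb and 46 genes from FNR, with 984 coding bases in 5 segments. Its model score was 1. It was TIC40B and not TIC40A that stood beside FNR.

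On the 5′ side of FNR lay Cz02g17190, a gene without a name on the same strand, with 2175 coding bases in 7 segments, 970 bases away. That gap was near the median of 921 bases for same-strand pairs, and 52.4% of them were no wider. FNR and TIC40B belonged to a run of 6 genes on the minus strand, from 1767119 to 1784296, in which TIC40B came last in the direction of transcription. Beyond TIC40B lay Cz02g17160 on the plus strand with 1680 coding bases, its 3′ end 876 bases from that of TIC40B. Of the 4 genes on each side, 6 shared the minus strand, 2 lay opposite, and 0 of 8 had a name. The gaps in this stretch ran from 580 to 1268 bases, so the gap between FNR and TIC40B was the widest of the 9. Around PETJ and PETE the gap between the members was the second narrowest of 9, with 159 bases the narrowest. The nearest other named genes were CAC1 (Cz02g17060), a carboxyltransferase subunit of acetyl-CoA carboxylase, 43.6 kb beyond TIC40B, and PSBPL (Cz02g18040), described as PsbP-like of photosystem II, 37.0 kb beyond FNR.

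Within 100 kb centred on PETJ, PETE and FNR there were 28, 27 and 29 genes, against a median of 27 and quartiles of 24 and 30 over windows centred on every chromosomal gene. All 3 counts thus lay between the quartiles. In a window of 50 kb, FNR had 32 genes per 100 kb, above the upper quartile of 30.2, and 84.3% of windows held no more, whereas PETJ and PETE had 28 each, the median of that window.

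Further genes were found by a list of names and descriptions for photosynthetic electron transport and the inner membrane translocase. Not all of them are partners of the 3 proteins, since 11 are TIC genes of the translocase and CYC4 is described only as Cyt c. It matched 37 genes on chromosomes, the members included, 11 gene models in the plastid and 3 in the mitochondrion, where the words for cytochrome c also caught oxidase subunits. PETJ, PETE and FNR had 1 gene each by name, whereas ferredoxin, the substrate of FNR, had 7 genes on 4 chromosomes. Among direct neighbours, 2 pairs had both genes in the list, namely PETJ with PETE and TIC40B with FNR. Both were known when the list was written, so their presence in it is no finding.

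Upstream of the lumenal carriers, the cytochrome b6f complex was encoded by 4 nuclear genes on 4 chromosomes and by 5 plastid genes. The nuclear ones were PETC, the Rieske iron-sulfur protein, PETM, PETN and PETO, with 324 to 669 coding bases and 1 to 5 introns. The 5 plastid genes, among them petA for cytochrome f, which hands electrons to the carriers, had no intron. None of the nuclear b6f genes lay on chromosome 1 with PETJ and PETE. PSAF (Cz13g06010), the photosystem I subunit that docks both carriers in Chlamydomonas reinhardtii, had 702 coding bases and 4 introns on chromosome 13. Unlike PETE, all 5 of these nuclear genes had introns, and PETJ was equal to PETN in its 2.

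On the stromal side, the photosystem I subunits that bind ferredoxin were split between the plastid, with psaC at 246 coding bases, and the nucleus. PSAD (Cz05g36030) had 582 coding bases and 2 introns, and PSAE (Cz04g01180) had 336 coding bases and 3. The 7 ferredoxin genes had 369 to 3546 coding bases with a median of 429, and 0 to 15 introns with a median of 2. The gene named PETF (Cz07g28150), the name of the main photosynthetic ferredoxin in Chlamydomonas reinhardtii, had 414 coding bases and 1 intron of 543 bases. FDX5 (Cz07g16090) stood apart with 3546 coding bases and 15 introns, and its model score was 0.48. FNR was longer than 6 of the 7 ferredoxin genes and had more introns than those 6. The genes for ferredoxin-thioredoxin reductase, another enzyme fed by ferredoxin, were FTRC with 438 coding bases and 2 introns and FTRV with 393 bases and no intron. NIR1 (Cz12g08110), described as a ferredoxin-nitrate reductase, had 1077 coding bases and 2 introns.

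**Figure D4:**
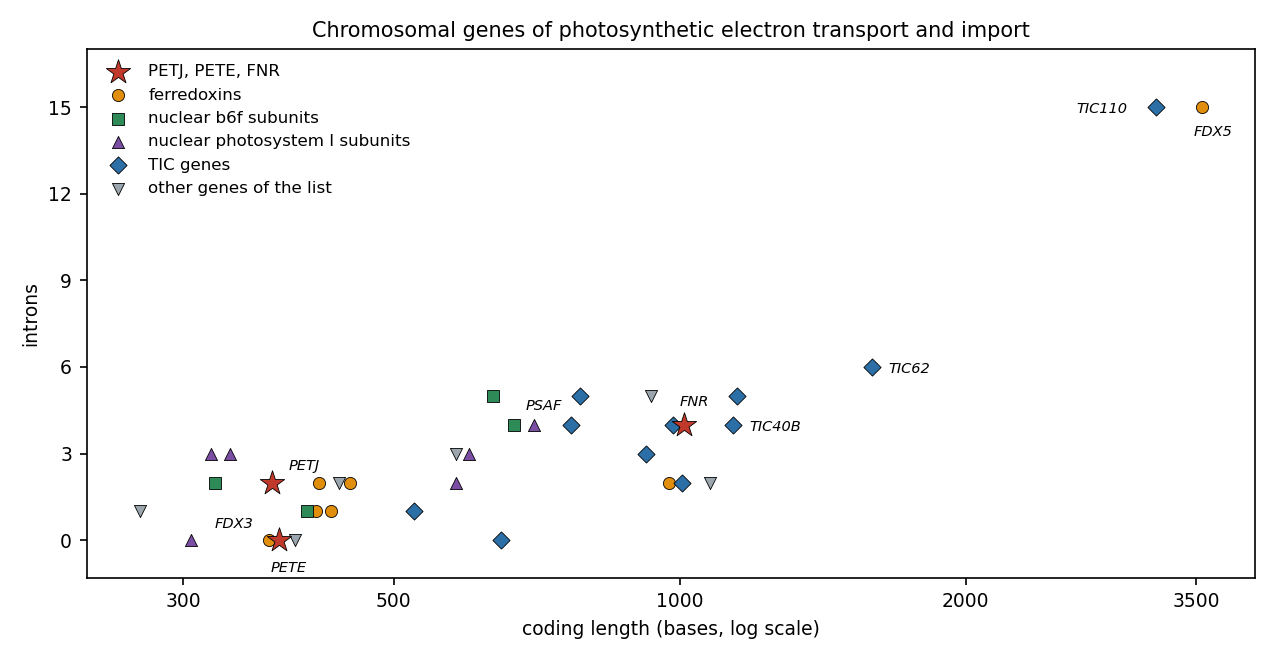
Coding length (bases, log scale) and number of introns of the 37 chromosomal genes of the list, 1 symbol per gene, with the 3 members as red stars. PETJ and PETE lie at the short end, at 372 and 378 bases with 2 introns and 0, FNR lies at 1011 bases with 4, and FDX5 and TIC110 have 15 introns each.

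Within the 37 chromosomal genes, PETJ and PETE were among the shortest, with 6 and 7 genes shorter, and FNR was among the longest, with 6 longer. Those longer than FNR were TIC22, TIC40B, TIC62, TIC110, FDX5 and NIR1, so these ranks depend on the TIC genes in the list. They also depend on the other names chosen for it. Of photosystem I only PSAA to PSAF, PSAH, PSAL and PSAN were sought, so the list is not all of electron transport. PETE was 1 of 5 without introns, beside FDX3, FTRV, PSAH and TIC20A. PETJ was 1 of 9 with 2 introns, but only 6 of the 32 genes with introns had a longer mean intron. FNR was 1 of 6 with 4 introns, and its mean intron length ranked in the middle, with 17 genes below and 14 above. TIC62 (Cz18g10170), whose plant counterpart binds ferredoxin-NADP reductase, had 1593 coding bases and 6 introns and lay on chromosome 18. TIC62 was thus on another chromosome than FNR.

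With no expression values, likeness between genes was measured on structure, as the sum of the differences in length between segments of the same rank, over genes with the same number of segments. Of the 36 other named genes with 3 segments, PETN, a small subunit of the b6f complex, was most like PETJ. Its segments had 132, 96 and 96 bases, a summed difference of 48 bases, and its introns had 271 and 303 bases. FTRC followed with a difference of 78 bases. Over all 1874 genes with 3 segments, Cz04g23200, without a name, was closest with a difference of 16 bases, so PETN was not the nearest of all. PETE was matched in length by 13 genes without a name, each 1 segment of exactly 378 bases, of 2797 compared. The named genes nearest to it were a PDAT gene (Cz10g07200), described as a phospholipid:diacylglycerol acyltransferase, with 381 bases, and FDX3 with 369. For FNR the nearest of 66 named genes with 5 segments was HCF136 (Cz10g21040), an assembly factor of photosystem II, with a difference of 239 bases. CAC1, the named neighbour beyond TIC40B, came next with 310. The nearest of all 1470, Cz07g30030, differed by 190 bases, began with a short segment of 27 bases and shared the phase of 3 of its 4 introns with FNR. HCF136 shared the phase of 1 intron with FNR and CAC1 of 2. With PETJ, PETN and FTRC each shared the phase of 1 of 2 introns and Cz04g23200 of 0. Shared phases carry little weight, since 52.9% of all introns were in phase 0.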

How the data were processed

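The members, lists and measures were chosen with earlier results of these data known. Stranded libraries were made from RNA of 14 cultures after removal of ribosomal RNA, per the labels' protocols. STAR 2.4.0j and Cuffdiff 2.2.1 are named without a role, per the submitters' processing notes. The genome build is not given in the sources used here, and the aligner settings likewise. The deposited file is a gene annotation with positions of genes, transcripts and coding segments. Per its source column, AUGUSTUS, a gene prediction program, made the 3 models and that of TIC40B. The deposited score of each gene model was used as a filter in alternatives only, and is printed for some models beside the scores of all genes or without them.

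Coding lengths were summed over the segments of a gene. An intron is the gap between neighbouring segments, and a gap is the run of bases between coding regions of neighbouring genes. 0 gene spans extended past the coding segments, so the gaps may include untranslated regions. The deposited phase of 9 of 9 member segments equalled that computed from lengths. Percentages of genes no longer or no wider have exact 95% Clopper-Pearson intervals. These treat genes or pairs as independent draws, which neighbours in 1 genome need not be, and hold no variation between cultures. For the alternatives they serve as a yardstick only, since the sets compared share genes. No test was made. Genes named are the members, TIC40B, 4 genes on each side of each locus, the nearest named genes, the list of electron transport genes, and per member the 2 named genes and 1 gene of any kind most like it in segment lengths. Any gene named beyond these in the closing section was chosen after its values were seen. Calculations used python 3.11.15, numpy 2.4.6, pandas 2.3.3 and scipy 1.17.1. The reading of segments, introns, gaps and orientation was tested on a simulated annotation, and the percentile on a plain series of numbers. Phases, densities, comparisons at like length and structural likeness were not tested in that way. Alternatives changed the set of genes, the minimum score and the window of gene density.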

Additional observations from a re-analysis of the deposited data

How the results depend on the processing

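Of 30 percentages recomputed under alternatives, 13 stayed within the 95% Clopper-Pearson interval of the reported value and 17 moved beyond it, with 0 crossing 50. With genes on the 19 chromosomes only, the share of genes no longer in coding length became 12.0% for PETJ, 12.4% for PETE and 47.5% for FNR. The share with no more introns was 45.3% for PETJ, 18.2% for PETE and 66.0% for FNR over all genes. On the chromosomes only it became 43.4%, 16.1% and 64.7% in that order. With named genes only, the shares in coding length were 8.71%, 9.05% and 47.2%, those in intron number 35.2%, 21.3% and 58.1%, and those in mean intron length 77.7% for PETJ and 45.1% for FNR. With models scored at least 0.5, the share of genes without introns, like PETE, was 19.3%. The share of pairs with a gap no wider than that of PETJ and PETE was 16.2% among pairs of any orientation and 21.4% where both models scored at least 0.5. The TIC40B model scores 0.23, so that filter removes the pair of FNR and TIC40B itself from its own comparison set. The 9 gene densities, in windows of 50 and 200 kb or of models scored at least 0.5, ran from 21 to 32 genes per 100 kb. They stayed within the exact 95% Poisson intervals of the reported counts, at 18.6 to 40.5 for PETJ, 17.8 to 39.3 for PETE and 19.4 to 41.6 for FNR. These intervals are wide, beyond the quartiles of 24 and 30 over all 100 kb windows, so staying within them says little. The score filter also lowered the median over all windows, from 27 to 21. The rank of a density among all windows moved more, for PETE to 71.3% of 200 kb windows with no more genes, against 57.2% of 100 kb windows. No replicate could be left out, since each condition had 1 library. Untranslated regions are not annotated, so distances between transcripts may be shorter than the gaps given.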

Other observations

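Direct neighbours that both carry a name made up 25 pairs among 14408 on the chromosomes, or 0.174%. Only 597 of all 15369 genes, or 3.88%, had a name, so the low share of such pairs is no finding about these genes. Of these, 17 shared a strand, and PETJ with PETE had the second narrowest gap of the 17. A narrower gap, of 177 bases, lay between a pair of genes both named PDAT on chromosome 10. One of them, Cz10g07200, had 381 coding bases in 1 segment, and whether the pair is separate genes was not tested. FNR with TIC40B ranked 9 of 17, at the median of 1268 bases. Next after PETJ with PETE in order of gap was TIC21A with LHC10, 535 bases apart. Which genes received a name was decided by the annotators, so these counts describe the naming as well as the genome. The PDAT and TIC21A pairs are named as the neighbours of PETJ with PETE in that order and were chosen after their values were seen.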
